A study of Mus musculus with 6 samples.

Results

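The ERK, JNK and p38 mitogen-activated protein (MAP) kinases were followed in mouse macrophages with and without progranulin (PGRN) after a fungal challenge. The group held the 9 genes Mapk3, Mapk8, Mapk9, Mapk14, Map2k1, Map2k3, Map3k8, Mapkapk2 and Mapkapk3, taken by gene name from a table of 54532 genes. All 9 were found, and all 9 passed the filter for testing, a mean of at least 1 FPKM, with 8882 genes tested in all. FPKM is the count of sequenced fragments of a gene scaled to the length of its gene model and to library size, and it is the unit in which levels of different genes can be compared.

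Polyadenylated RNA was sequenced from 3 libraries of wild type (WT) cells, replicates 1, 2 and 3, and 3 libraries of PGRN KO cells, replicates 4, 5 and 6. PGRN KO cells lack the secreted glycoprotein encoded by Grn, which is absent from the whole animal and not from macrophages alone. Both groups carry the strain label C57BL/6J, and all 6 cultures were given Candida albicans for 6 hours, at 1 fungal cell per macrophage according to the labels. No unchallenged level of any kinase was analysed here. The labels give macrophages of the peritoneal cavity, whereas the methods of the study name bone marrow-derived macrophages and its text gives another ratio of fungus to cells, so that neither is settled. The age of the mice that gave the macrophages was not given in the sources used here. According to those methods the WT and PGRN KO mice were bought from different suppliers, and differences of genotype and of source cannot be told apart. Nothing states that the libraries of a group came from separate mice or cultures, so that p-values measure only the spread between these samples.

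MAP kinase signalling passes a phosphate from kinase to kinase. A MAP3 kinase, such as TPL2 (Map3k8), phosphorylates a MAP2 kinase, such as MEK1 (Map2k1) or MKK3 (Map2k3). The MAP2 kinase then phosphorylates a threonine and a tyrosine in the activation loop of ERK, JNK or p38, and p38 in turn switches on the kinases MK2 (Mapkapk2) and MK3 (Mapkapk3). In macrophages that meet fungi or bacteria these cascades act downstream of Toll-like receptors and C-type lectin receptors, and they control transcription, stability and translation of cytokine mRNAs. The data hold mRNA levels only and say nothing of phosphorylation, which sets the activity of these enzymes.

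The coding sequence of the activation loop is shown for the 4 MAP kinases of the group, because this is where the ERK, JNK and p38 classes differ in the residue between the phosphorylated threonine and tyrosine. The sequences are 39 bases long, each lies within 1 coding exon, and capitals mark the codons of threonine, the middle residue and tyrosine, found by translating the GENCODE transcript on GRCm38. They lie at chr7:126763443-126763481 (+) for Mapk3, chr14:33392988-33393026 (-) for Mapk8, chr11:49872815-49872853 (+) for Mapk9 and chr17:28728384-28728422 (+) for Mapk14.
Mapk3 (ERK1): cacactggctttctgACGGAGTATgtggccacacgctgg
Mapk8 (JNK1): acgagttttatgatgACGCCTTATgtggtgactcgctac
Mapk9 (JNK2): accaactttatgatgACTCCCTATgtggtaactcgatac
Mapk14 (p38 alpha): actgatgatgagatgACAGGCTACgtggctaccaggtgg
The middle codon stands for glutamate in ERK1, proline in both JNKs and glycine in p38 alpha. The threonine is encoded by codon 203 in Mapk3, by codon 183 in Mapk8 and Mapk9, and by codon 180 in Mapk14. Mapk8 and Mapk9 shared 32 of the 39 bases, and pairs from different classes shared 19 to 21. Over the whole gene models of the 9 members at most 2.96% of 31-base words also occurred in another gene, and this was in Mapk3, whose words were shared most often with Gm15546.

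The targeted gene and the libraries were checked first. Grn was at 324, 337 and 325 FPKM in WT replicates, and at 0.0166, 0 and 0.0167 in PGRN KO replicates (limma adjusted p = 1.17e-08). The libraries held 15996786 to 17551619 counted fragments. PGRN KO replicate 6 stood apart from the other 5 libraries. Over the tested genes, its deviation from the mean of all libraries had a Spearman correlation with gene length of -0.47, against 0.15 to 0.24 in the others, and values without it are given beside the members past the threshold, Mapk3 and some of the other genes that it moved. Of 10 macrophage markers 9 had a mean of at least 1 FPKM, with Cd163 under 0.1 FPKM, and their summed level was 11638 to 12581 FPKM in WT libraries and 10452 to 14386 FPKM in PGRN KO. Of 5 markers of large peritoneal macrophages Gata6, Icam2 and Prg4 reached 1 FPKM, and Timd4 and Selp were under 0.1 FPKM.

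Markers of other cells moved with genotype. The summed level of 6 B cell markers was 4.80 to 6.08 FPKM in WT libraries and 19.0 to 24.1 FPKM in PGRN KO, with Cd79a, Cd79b and Ighm at 1 FPKM or more. That of 6 mast cell and eosinophil markers was 2.01 to 2.76 and 8.97 to 13.7 FPKM, with Epx and Prg2 under 0.1 FPKM. The sum of 6 neutrophil markers was 48.8 to 53.1 FPKM in WT libraries and 21.5 to 26.5 FPKM in PGRN KO, but it rested on S100a8, and the defining markers Ly6g, Retnlg and Mpo were under 0.1 FPKM. For 5 dendritic cell markers the sums were 27.4 to 34.6 and 15.9 to 19.3 FPKM, with Ccr7 alone at 1 FPKM or more, and none of 6 T and NK cell markers (1.05 to 1.44 and 2.18 to 2.63 FPKM in sum) or 4 mesothelial markers (0.254 to 0.319 and 0.119 to 0.330 FPKM) reached that level. The part of these cells in the results on kinases was not tested. In such bulk samples fewer cells of a type and less RNA per cell cannot be told apart.

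The kinases spanned a wide range of levels. In WT the order by mean FPKM was Mapkapk2 (553), Map2k1 (103), Mapk3 (69.1), Map2k3 (39.1), Map3k8 (17.8), Mapkapk3 (14.4), Mapk8 (8.49), Mapk14 (2.68) and Mapk9 (2.18), and no neighbours in this order overlapped between their 3 libraries. The order of the means was the same in PGRN KO, but there Map2k1 (104 to 114 FPKM) overlapped Mapk3 (83.0 to 113 FPKM), and Mapk14 (3.47 to 4.55 FPKM) overlapped Mapk9 (2.74 to 3.69 FPKM). The MAP kinases of the JNK and p38 classes were thus the lowest members, and the p38-activated kinase MK2 was the highest. Counted fragments per library ran from 163 for Mapk14 in WT replicate 2 to 27940 for Mapkapk2 in WT replicate 1.

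**Figure D1:**
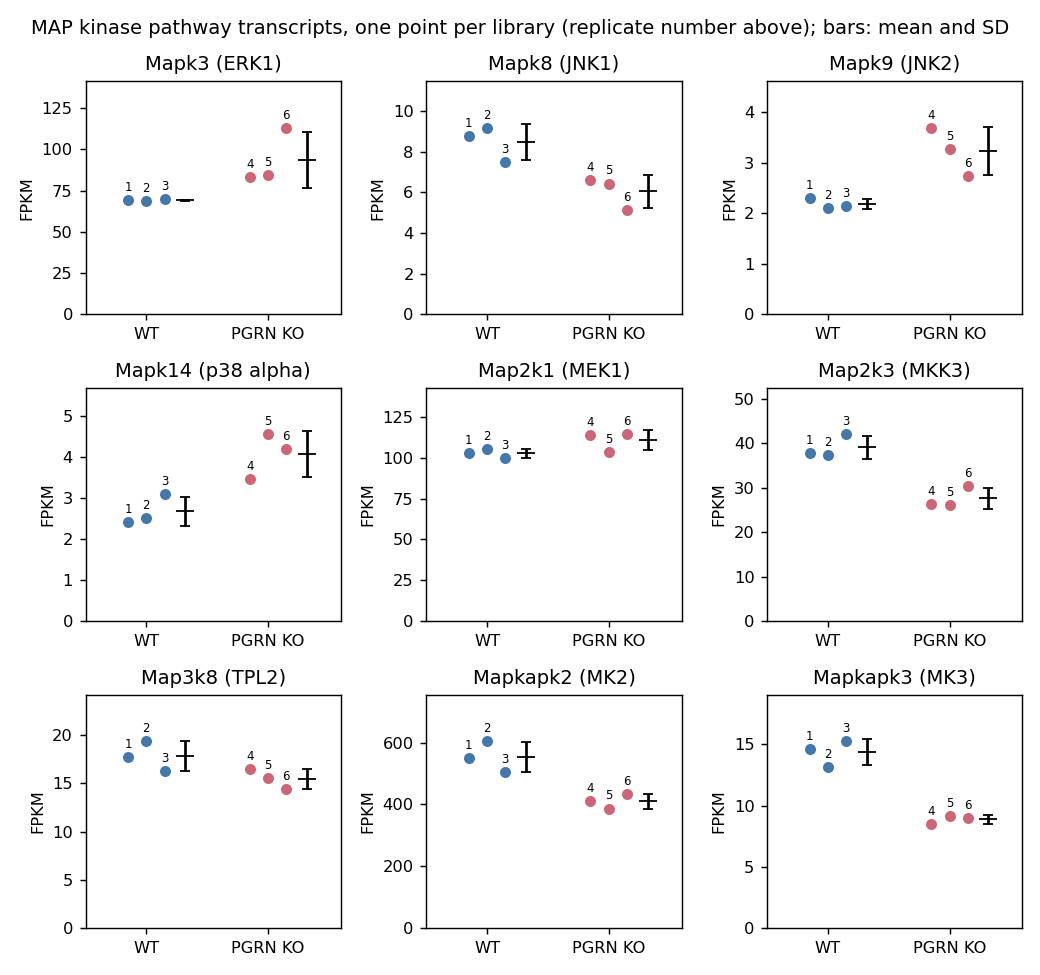
Level of each of the 9 kinase genes in FPKM (vertical axes, from 0) in the 3 WT (blue) and 3 PGRN KO (red) libraries, with the replicate number above each point and the mean and SD beside the points. Mapk9 and Mapk14 lie higher in PGRN KO, Mapk8, Map2k3, Mapkapk2 and Mapkapk3 lie lower, and Map2k1 and Map3k8 overlap between the groups.

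To determine which members differed between genotypes, limma was run on log2(FPKM + 1) over all 8882 tested genes, with p-values adjusted by the Benjamini-Hochberg method and a threshold of 0.05. Fold changes are given as PGRN KO minus WT on this scale, which understates the change of genes with low FPKM such as Mapk9 and Mapk14. Of the 9 members 6 passed, against 24.2% of all tested genes. Mapk9 and Mapk14 were significantly higher in PGRN KO, against 10.4% of all tested genes, and Mapk8, Map2k3, Mapkapk2 and Mapkapk3 were significantly lower, against 13.8%. The groups did not overlap in 7 of the 9 members, against 48.8% of all tested genes. The 9 members had a median absolute log2 fold change of 0.43, compared with 0.25 for all tested genes and 0.58 for all genes past the threshold.

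The split of 2 higher and 4 lower members depended on scaling. It was 3 and 3 when the sum of counted fragments served as library size, with quantile normalization and after a correction for gene length, since Mapk3 was then called and Mapk8 was not. On a TPM scale, where each library has the same sum, it was 1 and 3. No member changed its sign under any of the 18 alternatives tried.

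The ERK class was examined through Mapk3 (ERK1, ENSMUSG00000063065, chromosome 7, 126759601 to 126765819), which phosphorylates nuclear factors such as ELK1 and is phosphorylated by MEK1. Mapk3 reached 69.1, 68.7 and 69.6 FPKM in WT replicates, and 83.0, 84.5 and 113 FPKM in PGRN KO replicates. All PGRN KO libraries lay above all WT libraries, and replicate 6 stood above the other two. The means were 69.1 ± 0.449 and 93.5 ± 17.0 FPKM (SD, n = 3 each). The log2 fold change was 0.42 ± 0.13 (SE), with a 95% interval of 0.10 to 0.73, and the limma adjusted p of 0.0613 missed the threshold. Without PGRN KO replicate 6 the log2 fold change was smaller, 0.27, and the limma adjusted p was 0.00519. With all libraries Mapk3 also passed after the gene length correction (log2 fold change 0.35, limma adjusted p = 0.0141).

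The 2 JNK genes moved in opposite directions. JNKs phosphorylate the AP-1 subunit c-Jun. Mapk8 (JNK1, ENSMUSG00000021936, chromosome 14, 33377898 to 33447158) was at 8.78, 9.19 and 7.51 FPKM in WT replicates, and at 6.60, 6.44 and 5.11 in PGRN KO replicates. Each PGRN KO value was below each WT value, with replicate 6 the lowest. The log2 fold change was -0.43 ± 0.12 (SE, 95% interval -0.72 to -0.14), with a limma adjusted p of 0.0434, close to the threshold. After the gene length correction the log2 fold change was -0.25 and the call was lost (limma adjusted p = 0.0592), and without PGRN KO replicate 6 it was -0.33 (limma adjusted p = 0.0285). Mapk8 has the longest gene model of the 9 members, 11444 bases, and stayed past the threshold in 8 of 18 alternatives. A pseudogene on the same strand within it, Gm49037, was at no more than 0.311 FPKM.

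Mapk9 (JNK2, ENSMUSG00000020366, chromosome 11, 49846751 to 49886421) was at 2.30, 2.11 and 2.14 FPKM in WT replicates, and at 3.69, 3.27 and 2.74 in PGRN KO replicates. WT values lay within a narrow range, and all PGRN KO values were above it, with replicate 6 the nearest to WT. The mean rose 1.48-fold, and the log2 fold change was 0.41 ± 0.11 (SE, 95% interval 0.15 to 0.66; limma adjusted p = 0.0375). Without PGRN KO replicate 6 it was 0.49 (limma adjusted p = 0.00506), whereas the call was lost on a TPM scale (limma adjusted p = 0.0906). Mapk10 (JNK3), a gene of neurons, was at 0 FPKM in all 6 libraries.

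The balance of the JNK genes did not overlap between the genotypes. This follows from the levels above, since Mapk8 was lower and Mapk9 higher in every PGRN KO library than in every WT library. The ratio and its permutation test therefore add no support beyond those levels. A ratio within a library does not depend on library scaling. That of Mapk8 to Mapk9 was 3.82, 4.35 and 3.51 in WT and 1.79, 1.97 and 1.87 in PGRN KO. The lowest WT ratio was well above the highest PGRN KO ratio, and replicate 6 lay between replicates 4 and 5. The difference was -1.05 on the log2 scale (exact two-sided permutation p = 0.1, the smallest that 3 against 3 libraries allow, and 0.2 adjusted over the 6 ratios tested). After the gene length correction it was -0.74. That value was taken on log2(FPKM + 1), so the smaller difference reflects the added 1 as well as gene length. Mapk8 contributed 79.5 ± 1.75% of the summed JNK level in WT and 65.2 ± 1.095% in PGRN KO cells (SD, n = 3 each). The summed JNK level overlapped between groups, at 9.65 to 11.3 FPKM in WT libraries and 7.85 to 10.3 FPKM in PGRN KO.

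**Figure D2:**
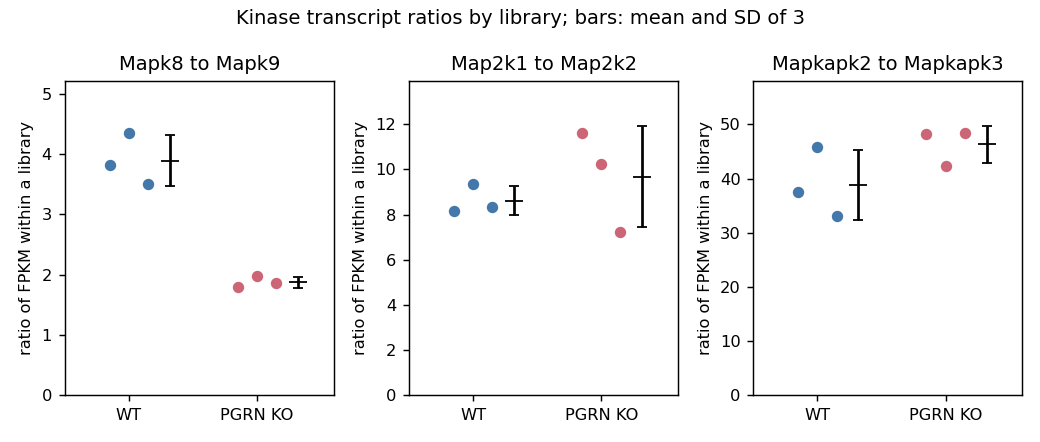
Ratio of the FPKM of related kinases within each library (vertical axes, from 0) for Mapk8 to Mapk9, Map2k1 to Map2k2 and Mapkapk2 to Mapkapk3 in WT (blue) and PGRN KO (red), with mean and SD of 3 libraries. The groups do not overlap for the JNK ratio, which follows from the levels of Mapk8 and Mapk9, and they overlap for the other ratios shown.

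The p38 class was carried by Mapk14 (p38 alpha, ENSMUSG00000053436, chromosome 17, 28691329 to 28748406), the main p38 of immune cells and an activator of MK2. Mapk14 was at 2.42, 2.52 and 3.09 FPKM in WT replicates, and at 3.47, 4.55 and 4.21 in PGRN KO replicates. The groups did not overlap, although WT replicate 3 and PGRN KO replicate 4 lay close together. The mean was 2.68 ± 0.363 FPKM in WT and rose 1.52-fold to 4.08 ± 0.552 FPKM (SD, n = 3 per group). The log2 fold change was 0.46 ± 0.12 (SE, 95% interval 0.18 to 0.75; limma adjusted p = 0.0344). It remained 0.44 without PGRN KO replicate 6 (limma adjusted p = 0.0351) and missed the threshold on a TPM scale (limma adjusted p = 0.0642). AC170998.1, a gene model on the same strand within Mapk14, was at no more than 0.171 FPKM.

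The other p38 genes were low. Mapk11 (p38 beta) was at 0.311 to 1.102 FPKM over the 6 libraries and was not tested, with a mean of 0.435 FPKM in WT libraries and 0.887 FPKM in PGRN KO. Mapk14 accounted for 82.0 to 85.7% of the summed p38 level in WT and for 79.0 to 82.6% in PGRN KO.

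Among the MAP2 kinases, Map2k3 (MKK3, ENSMUSG00000018932, chromosome 11, 60932033 to 60952811), an activator of p38, was at 37.9, 37.5 and 42.0 FPKM in WT replicates, and at 26.4, 26.2 and 30.4 in PGRN KO replicates. The highest PGRN KO value was below the lowest WT value. The mean fell to 0.706 of the WT mean, with a log2 fold change of -0.49 ± 0.10 (SE, 95% interval -0.72 to -0.26; limma adjusted p = 0.0149). Map2k3 passed in 14 of 18 alternatives, including that without PGRN KO replicate 6 (-0.56, limma adjusted p = 0.00197). Thus Map2k3 was lower in the same libraries in which its substrate gene Mapk14 was higher. MKK6 (Map2k6), the other p38-specific MAP2 kinase, was near 0, and Map2k3 made up at least 99.4% of their sum in each library. The ratio of Map2k3 to Map2k6 rested on few fragments of Map2k6 and overlapped between groups (exact two-sided permutation p = 0.5, or 0.6 adjusted over the 6 ratios).

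Map2k1 (MEK1, ENSMUSG00000004936, chromosome 9, 64185770 to 64253631), which phosphorylates ERK1, was at 103, 105 and 99.8 FPKM in WT replicates, and at 114, 104 and 114 in PGRN KO replicates. PGRN KO replicate 5 lay within the WT range, so that the groups overlapped. The log2 fold change was 0.11 ± 0.09 (SE), with a 95% interval of -0.10 to 0.31 and a limma adjusted p of 0.398. Uchl4 and Gm48855, which lie within Map2k1 on the other strand, were at no more than 0.514 FPKM. The microRNA gene Gm24106, also within it on the other strand, was at no more than 2.08 FPKM. Its relative Map2k2 (MEK2) had a mean of 12.0 FPKM in WT libraries and 11.9 FPKM in PGRN KO (limma adjusted p = 0.909), and the sign of this small difference changed with scaling. Map2k2 was called lower, however, without PGRN KO replicate 6 (-0.24 on the log2 scale, limma adjusted p = 0.0309). MEK1 was 87.8 to 92.1% of the MEK sum over all 6 libraries, and the ratio of Map2k1 to Map2k2 overlapped between groups (exact two-sided permutation p = 0.6). The JNK activators Map2k4 (26.4 and 23.1 FPKM, limma adjusted p = 0.198) and Map2k7 (3.81 and 3.96 FPKM, limma adjusted p = 0.772) did not pass either.

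Map3k8 (TPL2, ENSMUSG00000024235, chromosome 18, 4331327 to 4353015), the MAP3 kinase that activates MEK1 downstream of Toll-like receptors, was at 17.8, 19.4 and 16.3 FPKM in WT replicates, and at 16.5, 15.5 and 14.4 in PGRN KO replicates. PGRN KO replicate 4 lay above WT replicate 3, and the groups overlapped. The log2 fold change was -0.19 ± 0.10 (SE), with a 95% interval of -0.42 to 0.05 and a limma adjusted p of 0.201. TPL2 protein is held in a complex with p105, the product of Nfkb1, and ABIN2, the product of Tnip2, and both of these genes passed, in opposite directions. Nfkb1 was at 86.0, 90.4 and 79.1 FPKM in WT libraries and at 65.6, 60.6 and 52.4 FPKM in the PGRN KO libraries (log2 fold change -0.51, limma adjusted p = 0.0193). Tnip2 was at 14.8, 16.0 and 13.9 FPKM in WT libraries and at 19.2, 17.6 and 22.5 FPKM in the PGRN KO libraries (log2 fold change 0.38, limma adjusted p = 0.0495). Neither gene overlapped between groups, although Tnip2 was just past the threshold and lost its call in 8 of 18 alternatives. The call of Nfkb1 was lost with any 1 of the WT replicates left out and on a TPM scale.

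Both members of the group that p38 activates were lower in PGRN KO. Mapkapk2 (MK2, ENSMUSG00000016528, chromosome 1, 131053700 to 131097826), which phosphorylates the RNA-binding protein tristetraprolin and thereby stabilises cytokine mRNAs, was at 549, 605 and 506 FPKM in WT replicates, and at 410, 387 and 435 in PGRN KO replicates. All PGRN KO values were below all WT values. The mean fell from 553 ± 49.5 to 411 ± 23.9 FPKM (SD, n = 3 each), with a log2 fold change of -0.43 ± 0.11 (SE, 95% interval -0.69 to -0.17; limma adjusted p = 0.0321). Without PGRN KO replicate 6 it was -0.47 (limma adjusted p = 0.00758). A small nuclear RNA gene, Gm25549, lies within Mapkapk2 on the same strand and was at no more than 5.09 FPKM.

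Mapkapk3 (MK3, ENSMUSG00000032577, chromosome 9, 107254927 to 107289877), which shares substrates with MK2, was at 14.6, 13.2 and 15.3 FPKM in WT replicates, and at 8.49, 9.14 and 8.99 in PGRN KO replicates. The libraries of each genotype lay close together, with a wide gap between the groups. The mean fell to 0.618 of the WT mean, from 14.4 ± 1.06 to 8.87 ± 0.340 FPKM (SD, n = 3 each). With a log2 fold change of -0.64 ± 0.09 (SE, 95% interval -0.85 to -0.42; limma adjusted p = 0.00504), Mapkapk3 had the largest absolute change of the 9 members, above that of 88.5% of all tested genes. It was the only member past the threshold in all 18 alternatives, in which its limma adjusted p ranged from 0.000207 to 0.0376. Its log2 fold change was also -0.64 without PGRN KO replicate 6 (limma adjusted p = 0.00205). The ratio of Mapkapk2 to Mapkapk3 was 33.2 to 45.9 in WT and 42.3 to 48.4 in PGRN KO, and the groups overlapped (exact two-sided permutation p = 0.2, or 0.3 adjusted over the 6 ratios). Mapkapk5, a further MAPK-activated kinase, had means of 1.84 and 1.58 FPKM and did not pass (limma adjusted p = 0.312).

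**Figure D3:**
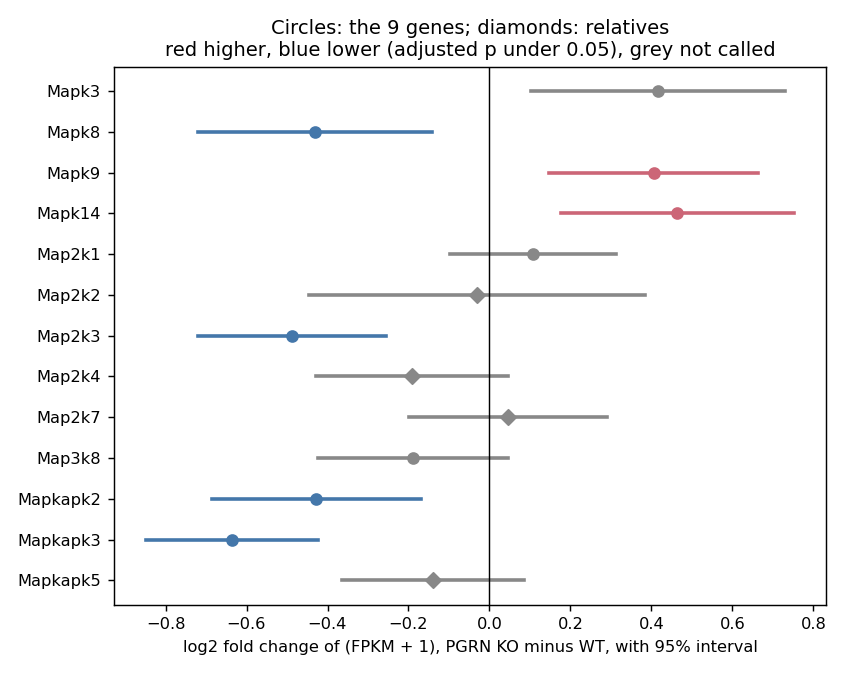
Log2 fold change of FPKM + 1, PGRN KO minus WT, with its 95% interval from limma for the 9 kinase genes (circles) and 4 tested relatives (diamonds), in red where higher, in blue where lower and in grey where the adjusted p was not under 0.05. The JNK genes Mapk8 (-0.43) and Mapk9 (0.41) lie on opposite sides of 0, and Mapkapk3 (-0.64) lies farthest from it.

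The calls of the members differed in how far they held across the alternatives. Mapkapk3 passed in 18 of 18, Map2k3 in 14, Mapkapk2 in 12, Mapk14 in 11 of 17, Mapk9 in 10 of 17, Mapk8 in 8 and Mapk3 in 7, and Map2k1 and Map3k8 passed in none. Mapk9 and Mapk14 had 17 because both lie under a mean of 5 FPKM, the stricter filter. With 1 WT library left out Mapkapk3 was the only member called, whichever library it was. Of all tested genes 8.03 to 9.94% were then called. Without PGRN KO replicate 6, 7 members were called, Mapk3 among them, and 41.3% of all tested genes. The number of members called thus moved along with that of all tested genes.

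**Figure D4:**
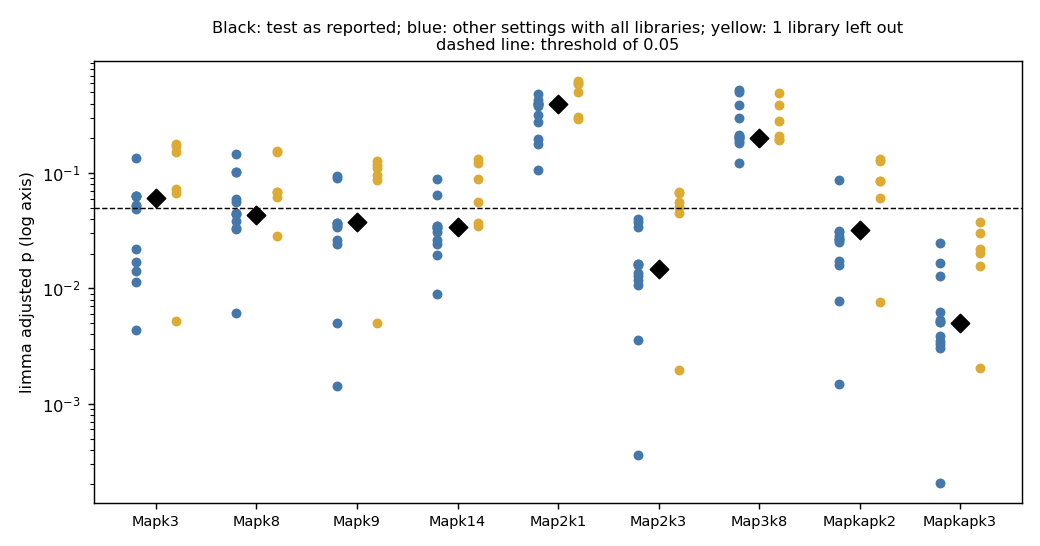
Limma adjusted p of each member (vertical log axis) in the test as reported (black), in the other settings with all libraries (blue) and with 1 library left out (yellow), against the threshold of 0.05 (dashed line). Points of Mapkapk3 all lie under the line, those of Map2k1 and Map3k8 all lie above it, and those of the other 6 members lie on both sides.

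To place the members in their pathway, 135 further genes in 10 lists were counted, some of them in more than 1 list. Of these 100 were tested, and 25 passed, 2 higher and 23 lower in PGRN KO. The share of 25.0% was close to the 24.2% of all tested genes. The 23 lower genes are set against 13.8% of all tested genes, and the 2 higher ones against 10.4%. The median log2 fold change was -0.23, compared with -0.03 for all tested genes. Within a list, the 3 largest changes past the threshold were named by rule, and the other genes were named after their values were seen.

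The further MAP kinases and the kinases upstream of them were counted next, against 24.2% of all tested genes past the threshold. None of the 4 tested further MAP kinases was called by limma, with 3 at an unadjusted p under 0.05, and none of the 4 tested further MAP2 kinases was called, with 0 under that value. Limma voom on the recovered fragments also called 0 in both lists. Without PGRN KO replicate 6, 3 of the MAP kinases and 1 of the MAP2 kinases were called lower. That setting called 41.3% of all tested genes. The same numbers were called lower with sample quality weights. With protein-coding genes only and after the gene length correction 1 of the MAP kinases was called lower. These settings called, in that order, 47.6, 28.9 and 31.7% of the genes tested in them. Of 15 tested MAP3 kinases, Taok3, an upstream kinase of p38, was higher (2.99 and 4.56 FPKM, limma adjusted p = 0.0184) and Map3k2 (MEKK2) was lower (8.70 and 4.47 FPKM, limma adjusted p = 0.0415). For Map3k2 the log2 fold change was -0.88, and -0.58 without PGRN KO replicate 6, its lowest library. Both calls were lost without any 1 of the WT replicates, without PGRN KO replicate 4 and on a TPM scale. Of 4 tested MAP4 kinases, Map4k4, which acts upstream of JNK, was lower. It was at 80.9, 82.4 and 81.8 FPKM in WT libraries and at 48.9, 49.4 and 41.4 FPKM in the PGRN KO libraries (log2 fold change -0.80, limma adjusted p = 0.00321). These groups were widely separated for Map4k4.

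None of 18 tested genes of the Ras module, which feeds the ERK cascade, passed with limma or limma voom, with 5 and 6 at an unadjusted p under 0.05 and a median log2 fold change of -0.22. Without PGRN KO replicate 6, 1 of them was called higher and 4 lower, when 41.3% of all tested genes were called. With sample quality weights 2 were called higher and 5 lower. After the gene length correction 2 were called lower, and without PGRN KO replicate 5 there was 1 lower. These settings called, in that order, 47.6, 31.7 and 18.0% of all tested genes. Of 16 tested scaffolds and partners 5 passed, a share of 31.3%. With any 1 of the WT replicates left out 0 passed, with 6 to 8 at an unadjusted p under 0.05. On a TPM scale 1 was called higher and 0 lower. Of all tested genes 8.03 to 9.94% were called without a WT replicate and 17.2% on a TPM scale. The median log2 fold change of the list was -0.22, and -0.06 after the gene length correction. Tnip2 was the higher one, and Nfkb1, Lamtor3 (a MEK partner on late endosomes), Ksr1 (a RAF and MEK scaffold) and Spag9 (JIP4, a JNK and p38 scaffold) were lower. Ksr1 had means of 2.91 and 1.78 FPKM (limma adjusted p = 0.0336), and Spag9 had means of 19.1 and 12.5 FPKM (limma adjusted p = 0.0350). Their log2 fold changes went from -0.50 to -0.37 and from -0.60 to -0.43 without PGRN KO replicate 6.

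In the lists downstream of the MAP kinases the genes called in the test as reported were all lower in PGRN KO. This was not particular to those lists. Over all 10 lists 23 of the 25 called genes were lower, and the higher ones were Taok3 and Tnip2. Mef2c, a nuclear target with means of 0.0867 and 0.34 FPKM and thus not tested, was called higher with no filter. Rps6ka1, a MAPK-activated kinase, was called higher with sample quality weights. Of 7 tested further MAPK-activated kinases 2 passed, a share of 28.6% against 24.2% of all tested genes. Mknk2 (MNK2), which phosphorylates the translation factor eIF4E, was at 41.3, 41.8 and 43.0 FPKM in WT replicates, and at 20.4, 21.3 and 21.7 in PGRN KO replicates. Its level in PGRN KO was thus 0.503 of that in WT, with little spread within either group (log2 fold change -0.96, limma adjusted p = 0.00119). Rps6ka2 (RSK3) had means of 30.2 and 19.5 FPKM (limma adjusted p = 0.0161), but it missed the threshold with any 1 of the WT replicates left out and on a TPM scale, with a limma adjusted p of 0.0556 to 0.0736.

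All 10 MAPK phosphatases, which remove the phosphates from the activation loops shown above, were tested, and 5 of them were lower, against 13.8% of all tested genes. The median log2 fold change of the 10 was -0.39. Dusp5, a nuclear ERK phosphatase, was at 132, 138 and 128 FPKM in WT replicates, and at 74.3, 73.7 and 91.1 in PGRN KO replicates (limma adjusted p = 0.00594). Dusp16, a phosphatase of JNK, had means of 27.6 and 16.8 FPKM (limma adjusted p = 0.0214) and a log2 fold change of -0.70, or -0.53 without PGRN KO replicate 6, and Dusp2 had means of 24.6 and 14.8 FPKM (limma adjusted p = 0.0316). Dusp1 and Dusp6 were the other two. No phosphatase had a log2 fold change above 0 as reported, and 1 did when the sum of counted fragments served as library size. The number of phosphatases called lower was 1, 1 and 3 without WT replicates 1, 2 and 3, and 3 on a TPM scale or with no filter. These settings called, in that order, 8.03, 9.63, 9.94, 17.2 and 5.96% of the genes tested in them, in either direction.

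Of 14 tested nuclear targets 5 passed, all lower, namely Elk1, Jun, Fos, Atf1 and Hnrnpa1, against 13.8% of all tested genes called lower. Without WT replicates 1, 2 and 3 the number was 1, 4 and 2. These fits called 8.03, 9.63 and 9.94% of all tested genes in either direction. Fos, an AP-1 subunit, was at 67.2, 70.0 and 67.8 FPKM in WT replicates, and at 37.0, 34.7 and 36.9 in PGRN KO replicates. The groups were far apart in Fos relative to the spread within them (log2 fold change -0.90, limma adjusted p = 0.00140). Jun, the substrate that gives JNK its name, had means of 36.4 and 24.1 FPKM (limma adjusted p = 0.0131). Of 16 tested transcripts known to be induced by ERK, 8 passed, and all 8 were lower, against 13.8% of all tested genes. Without WT replicates 1, 2 and 3 the number was 4, 5 and 5. The median log2 fold change over the 16 was -0.47. Egr1 (192 and 109 FPKM, limma adjusted p = 0.0117) and Egr2 (118 and 66.7 FPKM, limma adjusted p = 0.00324) had, after Fos, the largest changes of this list, which shares Fos, Dusp5 and Dusp6 with the lists above. Egr3, Fosl1 and Phlda1 completed the 8.

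**Figure D5:**
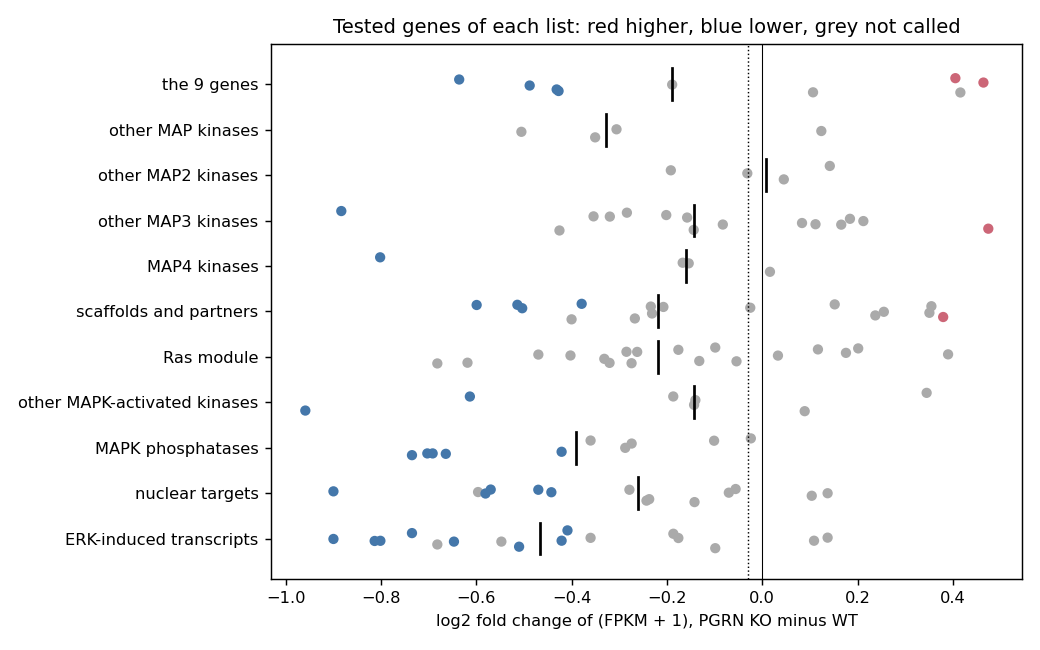
Log2 fold change of FPKM + 1, PGRN KO minus WT (horizontal axis), of the tested genes in each list, 1 point per gene, in red where higher, in blue where lower and in grey where not past the threshold, with a bar at the median of each list and a dotted line at the median of all tested genes (-0.03). Outside the 9 kinase genes a gene is called higher only among the other MAP3 kinases (Taok3) and the scaffolds and partners (Tnip2). The 9 kinase genes have called genes on both sides of 0.

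Genes whose levels followed those of a member most closely over the 6 libraries were sought among genes with a mean of at least 5 FPKM, leaving out predicted gene models. These correlations are a description over 6 libraries, in which the points share genotype and library, and many genes had values nearly as high. For Mapk8 the closest were Tiparp (Pearson r = 0.9987) and Ptgs2 (0.9983), with 15.4% of 4600 genes above 0.9. For Mapk9 they were Pacs2 (0.9954) and Adap2 (0.9945), with 3.37% above 0.9, and for Mapk14 they were Clptm1l (0.9812) and Slc48a1 (0.9769), with 1.35% above 0.9. Fewer genes were thus above 0.9 for Mapk9 and Mapk14 than for Mapk8. Mapk9 and Mapk14 also had fewer fragments, 163 to 434 per library against 1011 to 1681 for Mapk8. The part of depth in these shares was not tested.

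For Mapk3, which was highest in PGRN KO replicate 6, the closest were Cd63-ps (0.9984) and Hsd17b10 (0.9976), with 0.9941 and 0.9936 without that library. Among the lower kinases, Map2k3 was followed most closely by Csnk1d (0.9974) and Sec14l1 (0.9943), and Mapkapk2 by Slbp (0.9973) and the phosphatase gene Dusp1 (0.9967). Mapkapk3 was followed most closely by Csf1r (0.9977), the receptor of macrophage colony-stimulating factor, and Zfand6 (0.9963).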

How the data were processed

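The authors removed low-quality and adaptor reads, aligned the rest to the mouse genome, counted fragments per gene and deposited FPKM. The labels list HISAT2 2.0.5 and featureCounts 1.5.0-p3 with the build GRCm38, while the methods of the study name HISAT and HTSeq. Whether counting used strand was not given in the sources used here. Multiplying deposited FPKM by gene length gave whole multiples of a step particular to each library (tolerance 0.001) for 100.0% of values, and hence the counted fragments. The deposited library sizes followed median-ratio size factors, so FPKM were already scaled between libraries.

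Values were analysed as log2(FPKM + 1) with limma 3.58.1 in R 4.3.3 (mean-variance trend, no covariates, two-sided) over genes with a mean of at least 1 FPKM, with Benjamini-Hochberg adjustment over all 8882 and a threshold of 0.05. In simulated data 11.6% of the calls of the fit were false, more than the nominal share. It called 9.6% of genes changed by 0.5 on the log2 scale and 84.4% of those changed by 1. The simulation changed a far smaller share of genes than was called here and set the same relative spread for every gene. Its rates may therefore not hold for these data. Ratios of 6 kinase pairs were compared by exact permutation tests of log2 ratios, and 4 of them are given. Values of 1 relative are not reported here, but it enters the counts of its list. The alternatives were 12 other settings and leaving out each of 6 libraries. Members and lists were chosen with earlier results of these data known. Named genes were the members, 10 relatives, Grn, up to 3 called genes of each list with the largest changes and, for each called member and Mapk3, the 2 genes of highest correlation. Positions and coding sequences are from GENCODE on GRCm38. Fragment numbers carry no molecular identifiers and are not counts of molecules.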

Additional observations from a re-analysis of the deposited data

How the results depend on the processing

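Of 160 comparisons of a member with an alternative, 120 kept direction and side of the threshold, 33 lost the call, 7 gained it and 0 changed sign. The members called, 6 as reported (2 higher, 4 lower), were 2 with no filter on low values (0 higher, 2 lower). That setting called 5.96% of the genes it tested. With a mean of at least 5 FPKM 0 members were higher, and on a TPM scale 1 was higher. Leaving out 1 library gave 1 to 7 members, 0 to 3 higher and 1 to 4 lower. These fits called 8.03 to 41.3% of all tested genes. The 25 other pathway genes called (2 higher, 23 lower) were 14 on a TPM scale (1 higher, 13 lower). They were 45 with sample quality weights (5 higher, 40 lower), with a weight of 0.0899 for PGRN KO replicate 6. Of all tested genes 17.2% were called on a TPM scale and 47.6% with the weights. With no filter 15 of the other pathway genes were lower. With pseudocounts of 0.1 and 0.01, with a mean of at least 5 FPKM and with no variance trend 1 was higher. Leaving out 1 library gave 6 to 39 genes, 0 to 3 higher and 6 to 36 lower, lowest without WT replicate 1 and highest without PGRN KO replicate 6. The cause of these shifts was not tested. The setting with no filter tested 22912 genes. Over all tested genes, those called higher moved with scaling from 921 of 2151 to 922 of 1530 on a TPM scale and 1179 of 1874 with the sum of counted fragments.

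The log2 difference of the ratio of Map2k3 to Map2k6 ranged from -1.01 to 0.10 with 1 library left out, being 0.10 without WT replicate 3, and that of Map2k1 to Map2k2 ranged from -0.0006 to 0.34, being -0.0006 without PGRN KO replicate 4. The log2 fold change of Map2k2, -0.03 as reported, changed sign to 0.0172 on a TPM scale, 0.0601 with the sum of counted fragments and 0.0279 after the length correction, and it ranged from -0.2361 to 0.0816 with 1 library left out (without PGRN KO replicates 6 and 4). That of Map2k7 ranged from -0.0108 without PGRN KO replicate 6 to 0.1129 without WT replicate 3. No length-corrected ratio to Map2k6 could be computed, since Map2k6 was not tested. With 1 library left out the ratios cannot reach an exact permutation p under 0.05. Grn kept its call throughout. No paired analysis was possible because replicate numbers 1 to 3 stand for WT and 4 to 6 for PGRN KO, with none in common. Depth limits Mapk9 and Mapk14 most, with 163 to 434 fragments per library.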
